A study of Mus musculus with 12 samples.

Results

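The genes described here are 7 of the mouse protein disulfide isomerase family: P4hb, Pdia3, Pdia4, Pdia5, Pdia6, Txndc5 and Tmx1. They were found by matching the gene identifiers of the count table, without their version, to GENCODE symbols, which gave 7 of 47069 rows. All 7 had enough counts to be tested. The family was chosen by measured values of these same libraries: Pdia6, beside the chaperone gene Hspa5, was already known to be lower with clozapine in wild type. Which further values entered the choice is not recorded, so every comparison that uses the wild-type vehicle libraries is given as a description.

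The RNA came from bilateral frontal cortex of male C57BL/6 mice, with 12 libraries in 4 groups of 3. The groups are wild type with vehicle (libraries 1, 3 and 4), wild type with clozapine (2, 3 and 5), knockout with vehicle (2, 4 and 5) and knockout with clozapine (3, 4 and 5). Clozapine, an antipsychotic drug that binds many monoamine receptors, was given chronically at 10 mg/kg. The knockout carries HDAC2(loxP,loxP) with 1 copy of CamKIIa-Cre, so that Cre acts in excitatory neurons of the forebrain and other cells of the tissue keep the gene. The labels do not say whether the wild-type mice carry loxP sites or Cre, nor how long the drug was given.

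Protein disulfide isomerases are enzymes of the endoplasmic reticulum that form, break and rearrange disulfide bonds while secreted and membrane proteins fold. They carry domains related to thioredoxin, whose paired cysteines do the chemistry, and oxidases such as Ero1 renew some of them. When unfolded proteins gather, the sensors ATF6, IRE1 and PERK raise many folding genes, and ATF6 acts with NF-Y on a promoter sequence called the endoplasmic reticulum stress response element (ERSE). Neurons use this machinery for receptors, channels, adhesion proteins and neuropeptides.

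The promoters of the members differed in whether they held this element. ERSE is spelled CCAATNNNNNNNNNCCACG, and it was searched on both strands of the 250 bases before each RefSeq transcription start (build GRCm38.p6). All 7 members matched a RefSeq window, and Txndc5 has 3 windows. An exact ERSE stood in Pdia6, 98 to 80 bases before the start. With at most 1 letter changed, a form added after the exact search, it also stood in Pdia3 (29 to 11 bases before the start) and, on the opposite strand, in Pdia4 (108 to 90 bases before). P4hb, Pdia5, Txndc5 and Tmx1 had 0 matches of either form. Among 32851 windows of all genes, 0.113% held the exact form and 1.32% held it with at most 1 letter changed, which includes the exact form. The following stretches are from these 3 genes, which also stood high in wild-type vehicle, and from P4hb, which did not. They were picked with those values known, so showing them side by side is no test of a link between letters and levels. Capitals mark the match, which is exact in Pdia6 and has 1 letter changed in Pdia4 and Pdia3.
Pdia6, chr12:17266339-17266544, plus strand: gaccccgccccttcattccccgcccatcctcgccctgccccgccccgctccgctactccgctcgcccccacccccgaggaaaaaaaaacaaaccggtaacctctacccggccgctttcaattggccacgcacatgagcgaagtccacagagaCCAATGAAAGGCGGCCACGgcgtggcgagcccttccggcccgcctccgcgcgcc
Pdia4, chr6:47813513-47813762, minus strand: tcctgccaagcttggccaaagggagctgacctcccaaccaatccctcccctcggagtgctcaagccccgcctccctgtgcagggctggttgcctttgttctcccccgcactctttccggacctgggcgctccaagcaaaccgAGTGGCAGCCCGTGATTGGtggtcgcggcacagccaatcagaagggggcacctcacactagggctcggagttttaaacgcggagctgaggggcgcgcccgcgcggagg
Pdia3, chr2:121413867-121413896, plus strand: acgcagCCAATCGGCGGCTGCCACActgcg
P4hb, chr11:120573254-120573503, minus strand: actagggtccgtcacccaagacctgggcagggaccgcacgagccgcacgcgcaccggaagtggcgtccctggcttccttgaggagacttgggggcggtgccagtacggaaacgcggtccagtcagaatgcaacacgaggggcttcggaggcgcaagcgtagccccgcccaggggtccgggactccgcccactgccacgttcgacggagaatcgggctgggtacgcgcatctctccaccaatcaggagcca

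The Pdia3 match lies past the first GENCODE start of that gene, which is 127 bases upstream of the RefSeq start. The core of the unfolded protein response element (TGACGTGG), to which XBP1 and ATF6 can bind, stood in 1 of the 3 Txndc5 windows, 138 to 131 bases before that start, and in 0.563% of all windows. ERSE and this core are searched as separate strings, and they overlapped in none of the members. These are matches of letters and were not tested as binding sites.

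Some facts of the whole series bear on the values. Total counts lie between 23408372 and 28069638 per library, and 17286 genes were tested. Expression is given as CPM, the count over the TMM-scaled library size in its usual unit. Hdac2, the targeted gene, was at 63.4 to 75.7 CPM in wild type and 70.5 to 76.6 CPM in the knockout libraries, so the genotype is written as labelled; counts over the whole gene do not check the loss of single exons. Excitatory neuron markers (5 genes summed) were at 5422 to 6649 CPM over the 12 libraries, with differences between groups given beside the comparisons they touch, and no gene of the cell type lists was at 0 in all libraries of a group. Wild-type vehicle 3 carried the choroid plexus gene Ttr at 53.3 CPM, against 0.29 to 4.15 CPM in the other 11 libraries. In such bulk tissue, fewer cells of a type and less RNA per cell cannot be told apart. The labels do not say that libraries come from separate mice, so p-values measure only the spread between these libraries.

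Pdia3 was the most and Pdia5 the least abundant member in each of the 4 groups. Set per length, as CPM per kilobase of exon in wild-type vehicle (mean ± SD, n = 3), Pdia3 was at 67.4 ± 1.70, Pdia6 at 38.2 ± 2.15 and P4hb at 37.5 ± 1.05. Pdia4 followed at 17.8 ± 1.91, Txndc5 at 13.1 ± 0.444, Tmx1 at 8.81 ± 0.880 and Pdia5 at 0.985 ± 0.161. Only Pdia6 and P4hb, neighbours in this order, overlapped between libraries there. In the other 3 groups P4hb stood above Pdia6 with no overlap: 36.2 against 30.02 CPM per kilobase in wild-type clozapine, 35.3 against 26.9 in knockout vehicle and 36.2 against 28.04 in knockout clozapine. Pdia4 stood above Txndc5 in wild-type vehicle (17.8 against 13.1) and below it in knockout vehicle (11.3 against 14.2), both with no overlap.

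Pdia3 (ENSMUSG00000027248.13, chromosome 2, 121413775 to 121438687, GRCm38), also called ERp57, is the isomerase that calnexin and calreticulin recruit to glycoproteins. Its wild-type libraries held 216, 214 and 206 CPM under vehicle and 184, 185 and 185 CPM under the drug. In the labelled knockout it was at 179, 171 and 176 CPM with vehicle and 178, 172 and 177 CPM with clozapine. All 3 wild-type vehicle libraries lay above the other 9, and wild-type clozapine lay between them and both knockout groups without overlap.

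Pdia6 (ENSMUSG00000020571.12, chromosome 12, 17266545 to 17284770), also called P5, works beside the chaperone Hspa5 and acts on the stress sensor IRE1. Its wild-type libraries held 144, 151 and 134 CPM under vehicle and 112, 109 and 116 CPM under the drug. The knockout libraries were at 102, 99.5 and 100.04 CPM with vehicle and 113, 101 and 102 CPM with clozapine. Again the 3 wild-type vehicle libraries were above all others, and wild-type clozapine overlapped knockout clozapine but not knockout vehicle.

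Pdia4 (ENSMUSG00000025823.9, chromosome 6, 47796141 to 47813430), also called ERp72, has an additional catalytic domain and belongs to the chaperone complexes around Hspa5. Its wild-type vehicle libraries were at 46.4, 44.4 and 37.6 CPM and those of wild-type clozapine at 32.3, 33.7 and 34.0 CPM. The knockout libraries were at 24.9, 27.6 and 28.7 CPM with vehicle and 31.1, 34.0 and 28.5 CPM with clozapine. Wild-type vehicle was highest without overlap, and knockout vehicle was lowest, overlapping knockout clozapine by the library at 28.5 CPM. Of all 17286 tested genes, 2.67% had their 3 wild-type vehicle libraries above the other 9, as these 3 members did.

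P4hb (ENSMUSG00000025130.11, chromosome 11, 120560298 to 120573253) encodes the classical disulfide isomerase, which is also a subunit of collagen prolyl 4-hydroxylase and of the microsomal triglyceride transfer protein. In wild type it stood at 105, 107 and 111 CPM under vehicle and 109, 101 and 101 CPM under the drug. The knockout libraries had 102, 97.1 and 104 CPM under vehicle and 112, 99.8 and 98.5 CPM under the drug. Only wild-type vehicle and knockout vehicle did not overlap, by less than 1 CPM between library 1 of the first and library 5 of the second.

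Txndc5 (ENSMUSG00000038991.16, chromosome 13, 38500079 to 38528824), or ERp46, is an isomerase with several thioredoxin domains that is prominent in endothelial cells. In wild type its values were 61.3, 57.8 and 58.0 CPM under vehicle and 67.0, 57.3 and 60.4 CPM under the drug. In the knockout they were 65.6, 62.9 and 62.4 CPM under vehicle and 72.8, 65.1 and 67.4 CPM under the drug. Its mean was lowest in wild-type vehicle (59.0 ± 1.99 CPM) and highest in knockout clozapine (68.4 ± 3.93 CPM, SD, n = 3 each), with overlap between each pair of neighbouring groups.

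Tmx1 (ENSMUSG00000021072.12, chromosome 12, 70453095 to 70468040) encodes an isomerase anchored in the membrane. Wild-type levels were 31.9, 26.1 and 29.1 CPM under vehicle and 30.1, 33.0 and 33.2 CPM under the drug. Knockout levels were 29.5, 31.5 and 33.4 CPM under vehicle and 26.7, 28.2 and 28.9 CPM under the drug. Knockout clozapine was lowest and overlapped wild-type vehicle, but neither knockout vehicle nor wild-type clozapine.

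Pdia5 (ENSMUSG00000022844.7, chromosome 16, 35397312 to 35490873), an isomerase that acts on the stress sensor ATF6, was the rarest member, with 42 to 88 counts per library. Wild-type libraries had 2.22, 3.04 and 2.93 CPM under vehicle and 2.82, 2.03 and 2.05 CPM under the drug. Those of the knockout had 2.57, 2.90 and 3.05 CPM under vehicle and 2.02, 1.78 and 2.19 CPM under the drug. Both drug groups had lower means than both vehicle groups, with overlap in wild type and none in the labelled knockout. Replicates of this gene varied by 8.60% to 19.6% (coefficient of variation), so it has the widest intervals of the 7.

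**Figure D1:**
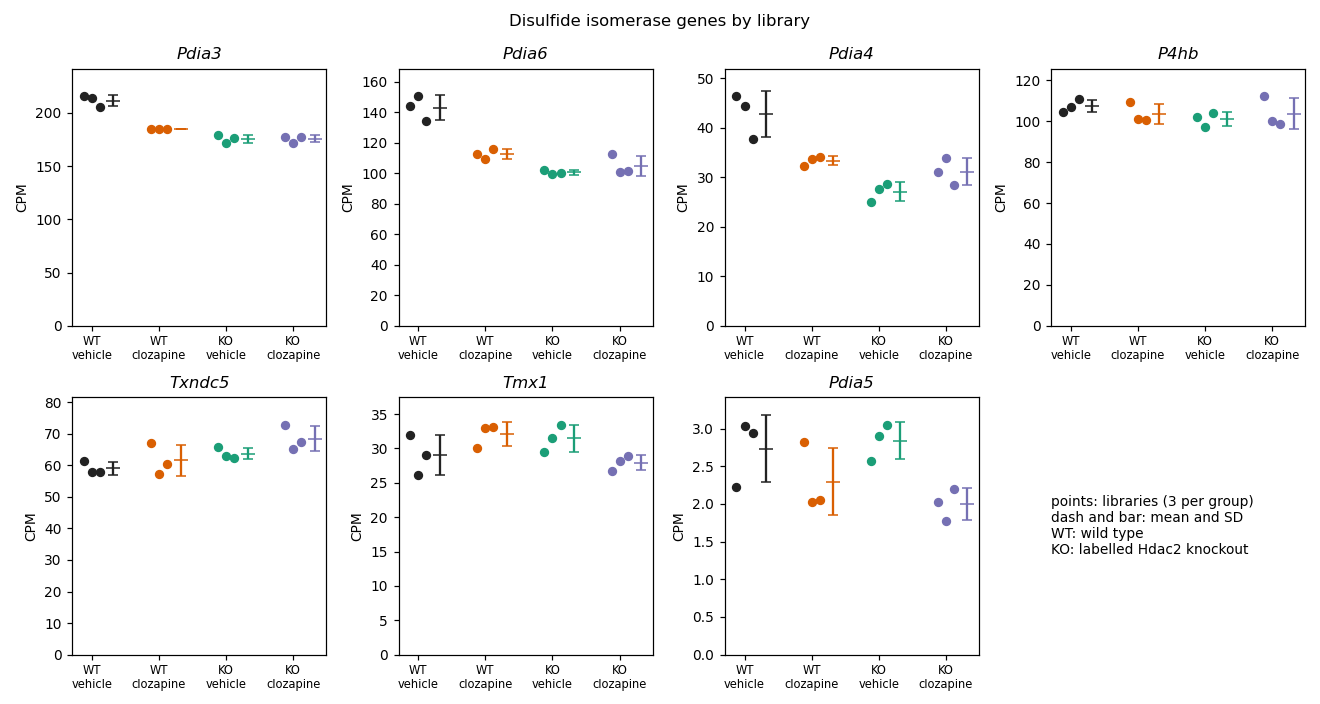
CPM of each gene (vertical axes from 0) in the 4 groups, with 1 point per library and the mean and SD of 3 libraries at its side; WT is wild type and KO the labelled Hdac2 knockout. Pdia3, Pdia6 and Pdia4 are highest in all 3 wild-type vehicle libraries (205.6 CPM or more against 185.4 CPM or less for Pdia3), while P4hb, Txndc5, Tmx1 and Pdia5 have no such gap.

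Clozapine against vehicle in wild type is the comparison in which Pdia6 was already known to be lower when the family was chosen. The values and the counts past the threshold are therefore a description and no test of the members. Pdia6 differed by -0.35 on the log2 scale (SE 0.05), Pdia3 by -0.20 (SE 0.04) and Pdia4 by -0.36 (SE 0.08), which are changes of -21.3%, -12.6% and -22.1%. The other 4 differed by -0.25 (Pdia5, SE 0.18) to 0.14 (Tmx1, SE 0.08). The threshold, an edgeR quasi-likelihood BH adjusted p under 0.05 over all tested genes, was passed by 2 of 7 members, Pdia6 and Pdia3, both lower, and 0.625% of all genes were lower in that way. Vehicle and clozapine libraries had separate ranges for 3 of 7 members and 15.6% of all genes. The member count was 0 without wild-type vehicle 3, 3 without knockout vehicle 5, and 1 without wild-type vehicle 1, wild-type clozapine 2, 3 or 5, knockout vehicle 2 or knockout clozapine 3, 4 or 5. The median member differed by -0.20, against 0.00 for all genes. In this comparison red blood cell markers (5 genes summed) were at 212 to 437 CPM with the drug, against 138 to 180 CPM without it. Summed markers of 3 other lists were lower with the drug and did not overlap: excitatory neurons at 5528 to 5699 against 5952 to 6430.5 CPM, interneurons (6 genes) at 983 to 992 against 994 to 1027 CPM, and choroid plexus (5 genes) at 3.93 to 4.54 against 4.74 to 60.2 CPM. By edgeR 0 of the tested genes of these 4 lists passed, and their part in the result was not tested.

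Labelled knockout against wild type under vehicle uses the same wild-type vehicle libraries and is described in the same way. Pdia4 differed by -0.66 (SE 0.08), Pdia6 by -0.51 (SE 0.05) and Pdia3 by -0.27 (SE 0.04), which are changes of -36.7%, -29.6% and -17.1% in the labelled knockout. P4hb differed by -0.09 (SE 0.06), and Pdia5, Txndc5 and Tmx1 by 0.05 to 0.12. Of 7 members 3 passed the threshold, all lower, beside 5.15% of all genes, and the 3 passed in each of the 12 fits that left out 1 library. Groups did not overlap for 5 of 7 members and 27.3% of all genes. Of these 5, Pdia3, Pdia4, Pdia6 and P4hb were lower in the labelled knockout and Txndc5 was higher. Endothelial markers (5 genes) moved with this comparison: 2 of 5 passed, both lower, and their summed level was 152 to 185 CPM in wild-type vehicle and 143 to 151 CPM in knockout vehicle. Their part in the result was not tested.

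For clozapine in the labelled knockout, neither group mean uses the wild-type vehicle libraries, although the shared fit takes spread, scaling and gene filter from all 12. By edgeR's quasi-likelihood test 0 of 7 members passed (3 had an unadjusted p under 0.05), and DESeq2 and limma-voom also called 0; 0.0231% of all genes passed. Pdia3 differed by 0.00 on the log2 scale (SE 0.04), a change of 0.0316% with a 95% interval from -6.14% to 6.61%. Pdia6 differed by 0.06 (SE 0.06, interval -3.78% to 13.1%, edgeR adjusted p = 0.725). Pdia4 differed by 0.20 (SE 0.08, interval 1.74% to 30.1%, edgeR adjusted p = 0.330), opposite in sign to its value in wild type.

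The other members of that comparison also stayed short of the threshold. Pdia5 differed by -0.51 (SE 0.18, edgeR adjusted p = 0.235), a mean of 1.996 ± 0.209 against 2.84 ± 0.244 CPM, and its 3 clozapine libraries lay below the 3 vehicle ones. Tmx1 differed by -0.17 (SE 0.08, edgeR adjusted p = 0.361), with 27.9 ± 1.11 against 31.5 ± 1.95 CPM (SD, n = 3 each) and no overlap. P4hb differed by 0.04 (edgeR adjusted p = 0.866) and Txndc5 by 0.10 (edgeR adjusted p = 0.529). Groups did not overlap for 2 of 7 members and 18.7% of all genes, and the median member differed by 0.04 (all genes 0.00). Summed neuron markers were higher with the drug here and did not overlap, at 6537 to 6649 against 5422 to 6311 CPM for excitatory neurons and 1029 to 1047 against 916 to 1014 CPM for interneurons. None of these 5 and 6 genes passed, and their part in the values was not tested.

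Under clozapine the genotypes were compared by means of the drug groups alone, with spread, scaling and filter again from all 12 libraries. By edgeR 0 of 7 members passed (2 had an unadjusted p under 0.05; DESeq2 and limma-voom called 0), beside 2% of all genes. Pdia3, Pdia6 and Pdia4 differed by -0.07 (SE 0.04, edgeR adjusted p = 0.434), -0.10 (SE 0.06, edgeR adjusted p = 0.408) and -0.10 (SE 0.08, edgeR adjusted p = 0.622). Their 95% intervals were -10.9% to 1.22%, -13.9% to 1.26% and -17.2% to 5.63%. Tmx1 differed by -0.20 (SE 0.08, edgeR adjusted p = 0.199), with the knockout libraries below the wild-type ones, and Txndc5 by 0.15 (SE 0.06, edgeR adjusted p = 0.233). P4hb differed by -0.0693% (interval -8.09% to 8.65%) and Pdia5 by -0.20 (SE 0.18, interval -33.6% to 13.9%). Groups did not overlap for Pdia3 and Tmx1, 2 of 7 members, and for 22.5% of all genes. Summed markers of 4 lists did not overlap either. In the labelled knockout excitatory neurons (6537 to 6649 against 5528 to 5699 CPM, 1 of 5 genes passed, higher), interneurons (1029 to 1047 against 983 to 992 CPM) and choroid plexus (4.91 to 8.57 against 3.93 to 4.54 CPM) were higher. Endothelial markers were lower (146 to 151 against 157 to 182 CPM), 0 genes of these last 3 lists passed, and the part of the 4 lists in the values was not tested.

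**Figure D2:**
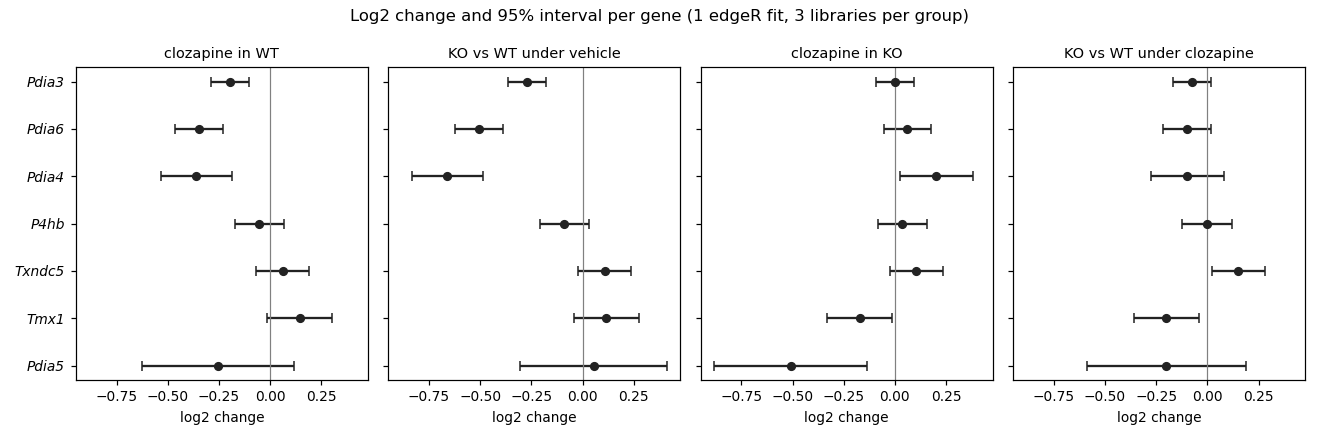
Log2 change (horizontal axis) with its 95% interval for each gene in the 4 comparisons, from 1 fit of the 12 libraries with 3 per group. Pdia3, Pdia6 and Pdia4 lie left of 0 in the 2 comparisons that use wild-type vehicle (-0.20 to -0.66) and between -0.10 and 0.20 in the other 2.

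The interaction subtracts the drug's wild-type log2 difference from its difference in the labelled knockout, and it too holds the wild-type vehicle libraries. It was 0.56 for Pdia4 (SE 0.12), 0.41 for Pdia6 (SE 0.08) and 0.20 for Pdia3 (SE 0.06), and -0.32 for Tmx1 (SE 0.11). Pdia5 was at -0.26 (SE 0.25), and P4hb and Txndc5 at 0.09 and 0.04. Of 7 members 2 passed, Pdia4 and Pdia6, both positive, beside 0.526% of all genes that were positive and passed. The count was also 2 without wild-type vehicle 4 or knockout vehicle 4, was 1 without wild-type clozapine 2, and was 0 without any 1 of the other 9: knockout clozapine 3, 4 or 5, knockout vehicle 2 or 5, wild-type clozapine 3 or 5, and libraries 1 or 3 of wild-type vehicle. This value and those of clozapine in wild type and of genotype under vehicle share libraries, so their likeness is no separate evidence.

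Over all 12 libraries the members split by pattern, and less clearly so without wild-type vehicle. Pearson correlations of log2 CPM over the 12 libraries were 0.97 for Pdia3 with Pdia6, 0.90 for Pdia4 with Pdia6 and 0.87 for Pdia3 with Pdia4. The libraries fall apart into wild-type vehicle and the rest for these genes, so the values without the wild-type vehicle libraries stand beside them: 0.79, 0.60 and 0.38 over 9 libraries. As deviations from group means they were 0.61, 0.27 and 0.09. Over the 12 libraries P4hb correlated with the 3 at 0.38 to 0.55, Txndc5 at -0.58 to -0.50 and Tmx1 at -0.27 to -0.15. Over the 9 libraries these ranges were 0.18 to 0.57, -0.31 to 0.02 and 0.03 to 0.37. As deviations from group means they were -0.24 to 0.40, -0.18 to 0.48 and -0.44 to 0.30, and P4hb with Txndc5 was at 0.64. Txndc5 and Tmx1 ran opposite to each other in the 9 libraries without wild-type vehicle (-0.88) and less so over all 12 (-0.35). The libraries share group, depth and scaling, and the values are a description.

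**Figure D3:**
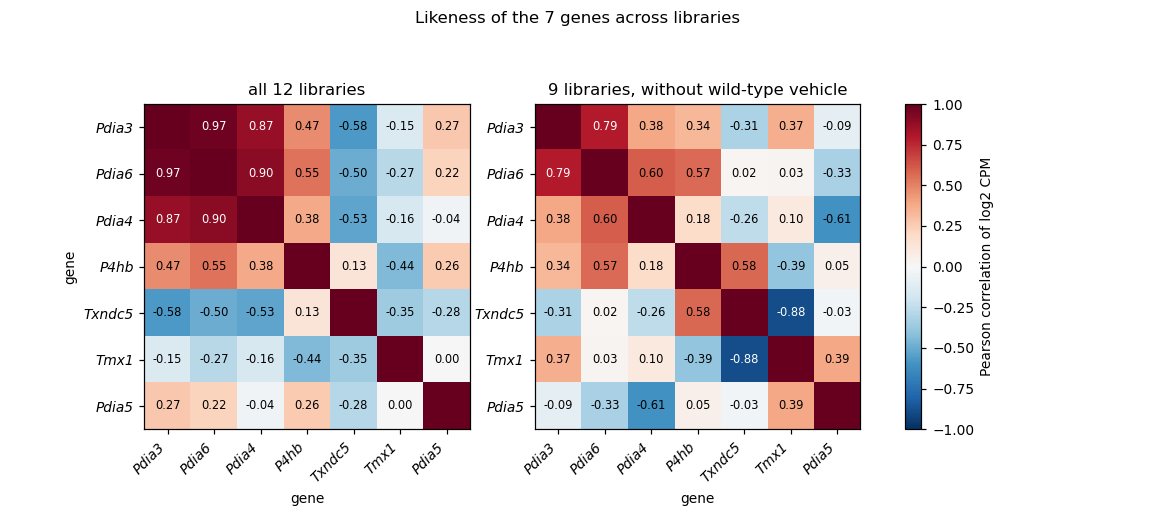
Pearson correlation of log2 CPM between each pair of the 7 genes (colour scale -1 to 1), over all 12 libraries at left and over the 9 that are not wild-type vehicle at right. The block of Pdia3, Pdia6 and Pdia4 runs from 0.87 to 0.97 at left and from 0.38 to 0.79 at right.

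Genes outside the family with the most similar pattern were found by Pearson correlation over the 12 libraries. They are the highest among very many genes over few libraries, so high values can arise without a relation. For Pdia3, Pdia6 and Pdia4 they also include the step between wild-type vehicle and the rest. The genes named below for the mean of the 7 members also had their highest group mean in wild-type vehicle. That mean pools members whose patterns ran in opposite ways. For single members the nearest were Hspa5 to Pdia3 (0.98), Ptpn5 to Pdia6 (0.98), Adra2c to Pdia4 (0.96), Dact2 to Txndc5 (0.94), Cct8 to Tmx1 (0.91), Morn5 to P4hb (0.91) and Mrps7 to Pdia5 (0.89). Hspa5, the main chaperone of the endoplasmic reticulum, averaged 371 CPM under vehicle and 261 CPM under clozapine in wild type. In the labelled knockout these means were 222 and 235 CPM. Ptpn5, a neuronal phosphatase, averaged 277 CPM under vehicle and 222 CPM under clozapine in wild type, with 207 and 212 CPM for the knockout. Nearest to the mean of the 7 standardised members were Hspb1 (0.92), Srarp (0.90), Vdr and Podxl (both 0.89), and Mynn, Tmem273, Dxo (all 0.88) and Polr2c (0.87). Group means were low for Morn5 (0.32 to 0.40 CPM), Tmem273 (0.32 to 0.58 CPM) and Vdr (0.53 to 1.29 CPM). Hspb1, a small heat shock protein, averaged 13.5 CPM under vehicle and 9.65 CPM under clozapine in wild type, with 6.84 and 6.72 CPM for the knockout.

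Other genes of disulfide formation did not pass. Of 16 further isomerase family genes 10 were tested, among them Erp29, Erp44, Tmx2, Tmx3, Tmx4 and Dnajc10, and 0 passed by edgeR in any of the 5 comparisons (1 or 2 had an unadjusted p under 0.05 in each). Their log2 differences for labelled knockout against wild type under vehicle ran from -0.17 to 0.17, with a median of 0.01 (all genes 0.00). The ends were Txndc11 at -0.17 (SE 0.06) and Dnajc10 at 0.17 (SE 0.05). Dnajc10, higher in the labelled knockout, came nearest to the threshold there (edgeR adjusted p = 0.0552). The 6 others, Pdia2, Pdilt, Erp27, Casq1, Agr2 and Agr3, were at 0.588 CPM or less in every library and were not tested.

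All 9 oxidases and their reductive partners were tested, and 0 passed by edgeR in any comparison (0 to 3 at an unadjusted p under 0.05). Ero1l and Ero1lb, the oxidases that renew P4hb, differed by -0.15 and -0.08 between genotypes under vehicle. Prdx4, a peroxidase that also feeds disulfides to isomerases, differed by 0.28 (SE 0.11), the highest of that list. Qsox1, also higher in the labelled knockout, came nearest to the threshold in that comparison, at 0.18 (SE 0.06, edgeR adjusted p = 0.0543).

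Partners of the members were mixed. Of 8 tested, 2 passed under vehicle between genotypes, both lower, beside 5.15% of all genes. Calr, the lectin chaperone calreticulin that works with Pdia3, differed by -0.40 (SE 0.05): under vehicle, the wild-type libraries had 400.2, 421 and 409 CPM and the knockout ones 324, 309 and 303 CPM, with no overlap. P4ha1, the catalytic subunit that pairs with P4hb in prolyl 4-hydroxylase, differed by -0.39 (SE 0.08), and it no longer passed without knockout vehicle 2 (-0.32). Calr also passed for clozapine in wild type (-0.25, SE 0.05), the 1 of 8 in that comparison, where 0.625% of all genes passed and were lower. Its call was lost when wild-type clozapine 5 (-0.24) or wild-type vehicle 3 (-0.23) was left out, and with a replicate block (-0.28). Canx, the membrane-bound relative of Calr, differed by -0.02 and -0.05 in the same comparisons.

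Of 5 selenoproteins and other resident proteins 1 passed between genotypes under vehicle: Creld2, an isomerase-like protein raised in endoplasmic reticulum stress, at -0.65 (SE 0.10). Of 11 reference genes of the unfolded protein response 7 passed there, all lower, with a median of -0.32. Beside both counts, 5.15% of all genes passed and were lower. Sdf2l1 differed by -0.94 (SE 0.11), Hspa5 by -0.74 (SE 0.05), Manf by -0.55 (SE 0.07) and Hyou1 by -0.45 (SE 0.07). Hsp90b1, the smallest of the 7 at -0.19, no longer passed without wild-type vehicle 1 (-0.18) or 3 (-0.15), knockout vehicle 2 (-0.21) or 4 (-0.15), or knockout clozapine 3 or 5 (both -0.19). Atf4, Ddit3, Dnajb9 and Herpud1 differed by -0.12 to 0.12 and did not pass. For clozapine in wild type 4 of the 11 passed, all lower, beside 0.625% of all genes. They were Hspa5 at -0.51, Sdf2l1 at -0.50, Manf at -0.34 and Dnajb11 at -0.29. Hspa5 was already known to be lower in this comparison when the family was chosen, so its value is a description and no test. It passed in each of the 12 fits that left out 1 library. The other 3 did not pass in several, among them those without wild-type vehicle 1 or 3. For clozapine in the labelled knockout edgeR called 0 of these 11 (1 at an unadjusted p under 0.05) and 0 of the 5 (0 at an unadjusted p under 0.05). Between genotypes under clozapine edgeR also called 0 of the 11 (2 at an unadjusted p under 0.05) and 0 in each other list. DESeq2 and limma-voom were not counted over the lists.

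**Figure D4:**
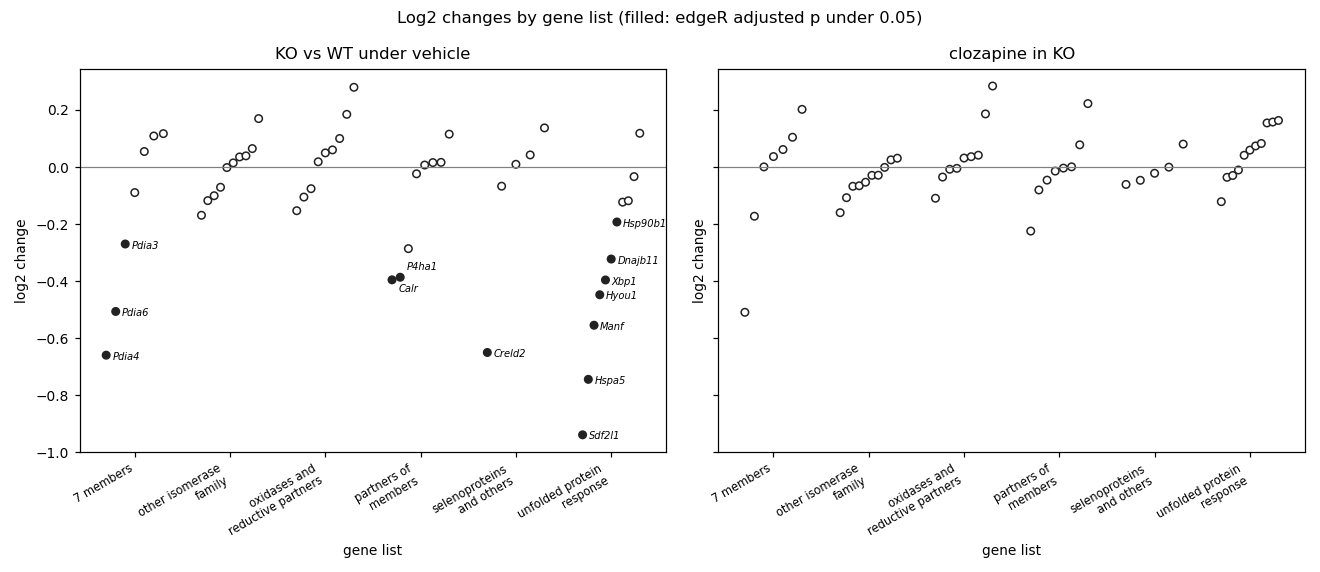
Log2 change (vertical axis) of each tested gene in the members and 5 lists, for labelled knockout against wild type under vehicle at left and clozapine in the labelled knockout at right; filled points have an edgeR adjusted p under 0.05. At left 3 members and 10 listed genes are filled, all below 0, and at right 0 are.

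The promoter search of ERSE was run over the same lists, as a description. The exact form stood in 2 of 9 unfolded protein response genes with a window, 2 of 7 partners, 1 of 5 in the selenoprotein list, 1 of 9 oxidases and 0 of 13 other isomerases. With at most 1 letter changed it stood in 3 of the 9 (Hspa5, Hsp90b1 and Ddit3), 2 of 7 partners (Calr and Canx), 2 of 5 in the selenoprotein list (Creld1 and Creld2), 1 of 9 oxidases (Ero1lb) and 1 of 13 other isomerases (Erp44). Over all 27025 genes with a window the share was 1.51%. Canx, Ddit3, Creld1, Ero1lb and Erp44 held a match and did not pass between genotypes under vehicle. Sdf2l1, Dnajb11, Xbp1 and P4ha1 passed, lower, with 0 matches of either form, and Hyou1 and Manf had no window. Pdia3, Pdia4, Pdia6, Hspa5, Hsp90b1, Calr and Creld2 held a match and passed, lower. That comparison holds the wild-type vehicle libraries, which enter the choice of the family, and the changed form was added after the exact search. These groupings are a description, and whether the letters bear on the change was not tested.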

How the data were processed

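The authors deposited estimated counts per gene for 12 mRNA-seq libraries, aligned with STAR 2.5.1b to GRCm38 and counted with featureCounts, per the submitters' processing notes. The treatment of reads that fit several genes, and the use of strand, are not given in the sources used here. Of all values 7.39% are not whole; those of the 7 members are whole. Opposite-strand genes overlap the whole spans of Pdia3 (Catsper2, at most 3.47 CPM), Pdia6 (Atp6v1c2, 1.08) and Txndc5 (Bmp6, 17.7). Whether reads of these genes were kept apart is not known.

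Whole counts had been assumed in the plan, so the values were rounded to whole numbers and fitted as 4 group means with edgeR 4.0.16 in R 4.3.3 (TMM, filterByExpr, robust quasi-likelihood test), with BH adjustment over 17286 genes at 0.05. Symbols, positions and exon lengths come from GENCODE M21 and promoters from RefSeq (GRCm38.p6). The script was tested on simulated counts. Alternatives were DESeq2 1.42.0, limma-voom (limma 3.58.1), RLE factors, other low-count filters, a replicate block, 2 groups alone, a length and GC correction, a threshold of 0.10, each library left out and, added after seeing the data, unrounded counts.

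The members and lists were chosen with earlier results of these data known. Members are all named. From each list, up to 4 passing genes of smallest p are eligible in a comparison, or the 1 of smallest p; other list genes named here were chosen after their values were seen. Nearest genes are the 8 and the 1 of highest correlation, without predicted genes.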

Additional observations from a re-analysis of the deposited data

Results flagged for a closer look

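The interaction of genotype and clozapine passed the edgeR threshold for 2 members and 2 reference genes. Clozapine in wild type, where Pdia6 and Hspa5 were already known to be lower when the family was chosen, is 1 term of it. These values are therefore a description and no independent test of a difference. The labelled knockout minus wild type was 0.56 on the log2 scale for Pdia4, 0.41 for Pdia6, 0.59 for Hspa5 and 0.49 for Manf. In each of the 4 the means were lower with clozapine in wild type and higher with it in the labelled knockout. For Pdia4 they were 33.3 against 42.8 CPM in wild type and 31.2 against 27.1 CPM in the labelled knockout. For Pdia6 they were 112 against 143 CPM and 105 against 101 CPM. The knockout changes were 15.0% for Pdia4, 11.3% for Manf, 5.89% for Hspa5 and 4.34% for Pdia6, and none passed the edgeR threshold. Manf passed without wild-type vehicle 4 and no longer passed in the other 11 fits that left out 1 library (0.43 to 0.54). The wild-type vehicle libraries, in which these genes stood high, enter this value and the choice of the family.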

How the results depend on the processing

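In wild type, the members called for clozapine were 2 in the reported fit, 0 with a replicate block, 1 with only the 2 groups compared and 0 to 3 when a library was left out. They were 3, with Pdia4, under DESeq2, RLE factors, no low-count filter, a mean CPM of at least 1, the length and GC correction and the threshold of 0.10. In the interaction they were 2, then 1 with limma-voom, 0 with a replicate block, 3 with DESeq2 and 0 to 2 when a library was left out. The labels do not say what the replicate numbers stand for. The 10 same-numbered pairs had correlations of deviations from -0.0803 to 0.123, within the range of the differently numbered pairs. With deviations from means of 3 libraries, these values cannot decide whether equal numbers mark libraries handled together. Under the block the 3 members lower in knockout vehicle still passed. The counts of 3, 0 and 0 for genotype under vehicle, clozapine in the labelled knockout and genotype under clozapine held in all alternatives run; DESeq2 gave Pdia5 no adjusted p for clozapine in the labelled knockout or the interaction. Between genotypes under vehicle the log2 difference over all alternatives ran from -0.74 to -0.53 for Pdia4, -0.54 to -0.47 for Pdia6 and -0.32 to -0.25 for Pdia3. Hsp90b1 no longer passed there in 8 alternatives, and Creld2 and P4ha1 with the block (adjusted p = 0.0512 and 0.0993). Over all genes the calls ranged, with a library left out, from 20 to 219 (141 reported) for clozapine in wild type, 617 to 1722 (1584) for genotype under vehicle, 0 to 25 (4) for clozapine in the labelled knockout, 59 to 425 (345) for genotype under clozapine and 13 to 181 (113) in the interaction; other alternatives gave 18 to 304, 385 to 2480, 2 to 285, 287 to 697 and 12 to 354. No called value changed sign, and 26 uncalled ones did. The causes were not tested. Depth limits Pdia5 most, with 42 to 88 counts per library.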
